A study of Mus musculus with 46 samples.

Results

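A set of 10 genes of nicotinamide adenine dinucleotide (NAD) synthesis and use, chosen by name, was followed in mouse brain: Qprt, Nampt, Nadsyn1, Nmnat1, Nmnat2, Nmnat3, Nadk, Sarm1, Parp1 and Sirt1. The choice was made with earlier results of these data known. All 10 were found, by the symbols of their Ensembl identifiers, among the 43346 genes of the deposited tables, and all 10 passed the filter on low counts in both tissues. Total RNA of 23 mice on the C57BL6/J background was sequenced, with 1 library from the right striatum and another from cerebral cortex in each animal (46 libraries). The groups were 8 R6/2 mice given CHDI-00340246 (4 females, 4 males), 7 R6/2 mice given vehicle (4 females, 3 males) and 8 wild-type (WT) mice given vehicle (4 females, 4 males). R6/2 mice, labelled Tg(HDexon1)62Gpb, are a model of Huntington's disease in which the human huntingtin promoter drives a transgene of exon 1 whose CAG repeat is expanded. CHDI-00340246 inhibits kynurenine 3-monooxygenase (KMO), an enzyme of the pathway that leads from tryptophan to NAD. It was given by mouth, 30 mg/kg per dose and twice-daily, starting at 4 weeks and ending at 12 weeks, the age of all mice at sampling. Vehicle was 10% (w/v) HP-β-CD in 50 mM citrate buffer at pH 5.5. No WT mouse received the compound, so its effect was measured in R6/2 mice alone.

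NAD carries electrons in energy metabolism and is also consumed as a substrate. Brain cells can make it de novo from tryptophan through kynurenine and quinolinate, where QPRT performs the committed step, or regain it from nicotinamide, where NAMPT is rate-limiting. Both routes, and the route from nicotinic acid, pass through the NMNAT enzymes, which add the adenylyl group, and NADSYN1 amidates the nicotinic acid form to NAD. NADK phosphorylates NAD to NADP. SARM1, PARP1 and SIRT1 split NAD as they act in axon degeneration, DNA repair and protein deacetylation.

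Libraries held between 30.4 and 37.8 times 1e+06 counts. Summed striatal projection neuron markers (9 genes) were between 730 and 8583 CPM in the striatal libraries and between 157 and 449 CPM in the cortical ones, and summed cortical projection neuron markers (7 genes) between 47.9 and 148 CPM in striatum and between 1293 and 1987 CPM in cortex, so each library matched its labelled tissue. CPM are counts per 1e+06 with TMM scaling over all 46 libraries. One library stood apart: the treated R6/2 striatum replicate 5 had 730 CPM of the striatal neuron markers, against 2211 to 3135 CPM in the other 7 treated striata, and each treated striatal result below that depends on it is given with and without it. WT cortex replicate 8 held 106 CPM of the pituitary hormone gene Prl, where the next cortical library had 10.0 CPM, and WT striatum replicate 5 held 35.4 CPM, where the next striatal library had 5.95 CPM. Both libraries are from the same animal. Labels do not say whether the libraries kept strand. Nampt shares its strand with the long noncoding gene Gdap10, which averaged 69 counts against 2198 for Nampt, and Nmnat3 with the pseudogene Gm28530 (5.9 counts against 139), so part of their reads could have been divided differently.

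The upstream sequences of 4 of the genes are shown as examples. By counts, Sirt1 was higher and Parp1 and Nmnat3 were lower in R6/2 mice in both tissues, and Nampt responded differently in the 2 tissues. Some of these calls depend on the settings, as given below. The sequences are from RefSeq on GRCm38.p6, 5′ to 3′ on the gene's strand, and end at the base before the RefSeq start, except for Sirt1, whose last 15 bases were left out because GENCODE places them in an exon. Capitals mark the E-box CACGTG and the GC box GGGCGG (or CCGCCC, the same box on the other strand); overlapping GC boxes were counted separately.
Sirt1 (chr10:63339051-63339285, minus strand): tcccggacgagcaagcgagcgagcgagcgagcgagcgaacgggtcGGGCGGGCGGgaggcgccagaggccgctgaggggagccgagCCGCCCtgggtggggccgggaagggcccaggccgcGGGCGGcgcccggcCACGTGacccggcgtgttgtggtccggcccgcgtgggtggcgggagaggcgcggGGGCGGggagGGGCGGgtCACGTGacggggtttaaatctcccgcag
Parp1 (chr1:180568641-180568890, plus strand): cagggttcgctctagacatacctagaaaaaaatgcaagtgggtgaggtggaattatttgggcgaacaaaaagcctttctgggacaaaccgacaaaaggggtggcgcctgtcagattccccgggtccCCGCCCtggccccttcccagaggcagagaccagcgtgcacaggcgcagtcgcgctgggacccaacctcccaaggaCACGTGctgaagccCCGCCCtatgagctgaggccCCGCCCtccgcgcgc
Nmnat3 (chr9:98296320-98296569, plus strand): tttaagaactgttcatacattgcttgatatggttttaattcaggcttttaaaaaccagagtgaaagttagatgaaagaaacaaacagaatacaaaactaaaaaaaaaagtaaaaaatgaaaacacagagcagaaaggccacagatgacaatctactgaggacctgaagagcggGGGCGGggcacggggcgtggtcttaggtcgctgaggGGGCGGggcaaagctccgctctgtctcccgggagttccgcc
Nampt (chr12:32820085-32820334, plus strand): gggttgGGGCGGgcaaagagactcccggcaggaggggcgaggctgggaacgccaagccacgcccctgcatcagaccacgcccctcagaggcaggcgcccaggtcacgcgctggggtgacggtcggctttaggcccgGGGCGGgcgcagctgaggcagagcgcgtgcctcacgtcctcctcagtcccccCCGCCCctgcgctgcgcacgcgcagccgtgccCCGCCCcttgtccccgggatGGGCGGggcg

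In GENCODE vM21 on mm10, all 10 genes are protein-coding. The genes of quinolinate use, nicotinamide salvage and final amidation span chr7:127107114-127122226 (Qprt, minus strand), chr12:32819545-32853349 (Nampt, plus) and chr7:143795584-143822849 (Nadsyn1, minus). Nmnat1 spans chr4:149467572-149485202 (minus), Nmnat2 chr1:152954993-153119261 (plus), Nmnat3 chr9:98287435-98420438 (plus) and Nadk chr4:155562378-155591001 (plus). The consumers span chr11:78472330-78497754 (Sarm1, minus), chr1:180568924-180601254 (Parp1, plus) and chr10:63319005-63381704 (Sirt1, minus). The printed windows of Sirt1, Nmnat3 and Nampt therefore lie inside the GENCODE span of their gene, outside its exons, and that of Parp1 lies before it.

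The 4 windows differ in composition. The Sirt1 window of 250 bases was 79.2% G or C with 39 CG dinucleotides, more than in 98.2% of the 27025 genes with a promoter in the table, and it held 2 E-boxes and 6 GC boxes. Nampt had 27 CG dinucleotides and 5 GC boxes, Parp1 had 16 CG dinucleotides with 1 E-box and 3 GC boxes, and Nmnat3 had 9 CG dinucleotides and 2 GC boxes at 45.6% G or C. An E-box occurred in windows of 6.86% of all genes and in those of 3 of the 10 NAD genes (Nadk, Parp1 and Sirt1), and a GC box in 35.4% of all genes and in 8 of the 10 (all but Qprt and Nmnat2). Of the 3 genes with an E-box, Sirt1 rose, Parp1 fell and Nadk was not called by edgeR in vehicle R6/2 mice, as described below. These matches are letters in a window and were not tested for binding or for a link to expression.

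Levels between genes were compared as FPKM, the deposited values per length of transcript. In WT striatum Nmnat2, the adenylyl transferase of Golgi membranes and axons, was the most abundant at 25.7 ± 2.21 FPKM (SD, n = 8), followed by the NAD kinase Nadk at 23.0 ± 1.24, Parp1 at 19.3 ± 0.967 and Nampt at 12.5 ± 0.583 FPKM. Sirt1 (5.93 ± 0.451), Sarm1 (5.28 ± 0.609), the mitochondrial Nmnat3 (3.50 ± 0.453), the nuclear Nmnat1 (3.39 ± 0.248) and Nadsyn1 (2.17 ± 0.207) followed. Qprt was lowest, at 0.195 ± 0.0456 FPKM. The ranges of neighbouring genes overlapped for Nmnat2 and Nadk, for Sirt1 and Sarm1, for Sarm1 and Nmnat3, and for Nmnat3 and Nmnat1, so these neighbours were not ordered beyond the spread between animals. In WT cortex the order was Nmnat2 (37.8 ± 2.47), Nadk (22.2 ± 0.984), Parp1 (20.7 ± 0.712), Nampt (13.1 ± 0.693), Sarm1 (8.63 ± 0.631), Sirt1 (5.64 ± 0.233), Nmnat1 (3.27 ± 0.383), Nadsyn1 (2.51 ± 0.403), Nmnat3 (1.07 ± 0.173) and Qprt (0.140 ± 0.0935 FPKM). There the ranges overlapped for Nadk and Parp1 and for Nmnat1 and Nadsyn1.

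**Figure D1:**
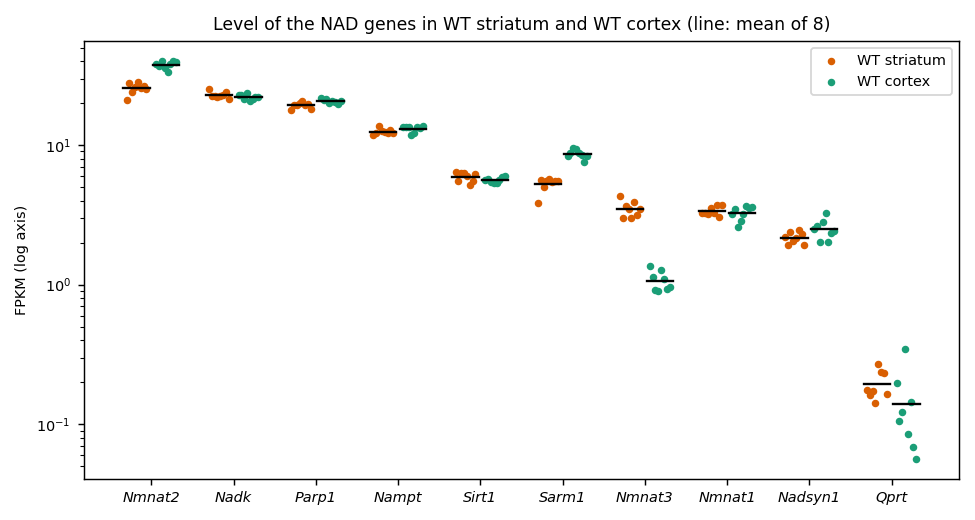
FPKM on a log axis of the 10 NAD genes in WT striatum and WT cortex; each point is 1 library, each line the mean of 8. Nmnat3 lies near 3.50 FPKM in striatum and near 1.07 in cortex, whereas Nmnat2 and Sarm1 lie lower in striatum.

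Of the 10 genes, Nmnat3, Sarm1 and Nmnat2 had the largest called differences between the 2 brain regions of WT mice. The library codes hold an L number that the labels do not explain, L1 to L4 in WT striatum and L7 or L8 in WT cortex. Tissue and L number can therefore not be told apart here. Nmnat3 had 6.74 to 9.34 CPM in striatum (median 7.60) and 1.88 to 2.92 CPM in cortex (median 2.14), with every striatal library above every cortical one. The log2 ratio of striatum to cortex was 1.73 ± 0.07 (SE; edgeR's quasi-likelihood test, adjusted p = 1e-09), or 3.32-fold. Nmnat2 had 101 to 135 CPM in striatum (median 124) and 159 to 193 in cortex (median 184), a log2 ratio of -0.59 ± 0.03 (adjusted p = 1.57e-08). Sarm1, the NAD hydrolase that acts against NMNAT2 in injured axons, had 14.3 to 21.0 CPM in striatum (median 19.7) and 27.8 to 33.2 in cortex (median 30.4), a log2 ratio of -0.71 ± 0.07 (adjusted p = 2.5e-06). For both genes the tissues did not overlap. Smaller differences passed for Nadsyn1 (-0.25 ± 0.08) and Parp1 (-0.14 ± 0.04), and 1 of -0.10 ± 0.04 for Nampt, which lost its call when any of 6 of the 8 animals was left out (adjusted p from 0.0563 to 0.128). So 6 of the 10 genes were called, 1 higher and 5 lower, where 62.8% of the 17051 genes tested were (31.2% higher, 31.6% lower). On FPKM, Nampt and Nadsyn1 (-0.19, adjusted p = 0.0742) were not called. Qprt, Nmnat1, Nadk and Sirt1 were not called (adjusted p = 0.186, 0.638, 0.5 and 0.452), although Qprt was when the animal of WT striatum replicate 8 was left out (0.0362).

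**Figure D2:**
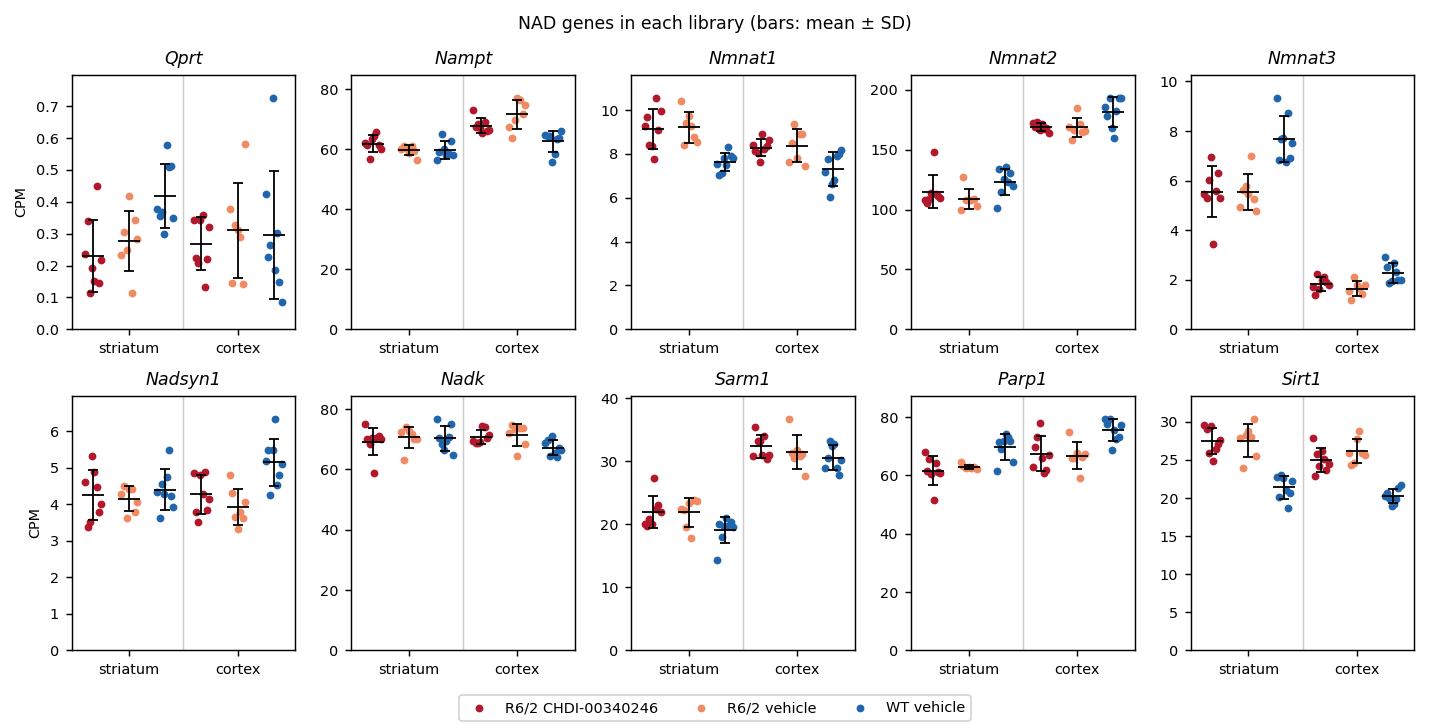
CPM of each NAD gene in every library, with striatum left and cortex right in each panel and, within a tissue, R6/2 mice given CHDI-00340246, R6/2 mice given vehicle and WT mice; bars are mean and SD. Sirt1 of both R6/2 groups lies above WT in both tissues, and the 2 R6/2 groups overlap for all 10 genes.

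In R6/2 mice given vehicle, the NAD genes moved in both directions against WT, by modest amounts. In the striatum Sirt1, Nmnat1 and Sarm1 rose and Nmnat3, Nmnat2 and Parp1 fell, that is 6 of 10 genes called (adjusted p below 0.05) where 50.2% of the 17394 genes tested were called. In the cortex Sirt1, Nampt and Nmnat1 rose and Nmnat3, Nadsyn1, Parp1 and Nmnat2 fell, which is 7 of 10 where 44.1% of 17484 were called. With 10 genes these shares are descriptions. Over all genes, about as many rose (25.8% in striatum, 21.5% in cortex) as fell (24.5% and 22.6%). The median log2 fold change of the 10 genes was -0.04 in striatum and 0.04 in cortex, beside 0.00 over all genes in both. The counts of both directions depend on the scaling: on the deposited FPKM (limma on log2 (FPKM + 0.1)), the median of all genes moved to 0.12 in striatum and 0.08 in cortex, and the 10 genes were 5 higher and 1 lower in striatum and 5 higher and 2 lower in cortex, where 51.8% of genes were called in striatum (37% higher, 14.7% lower) and 45.2% in cortex (29.1% higher, 16.1% lower). Nampt and Nadk of striatum, at 0.13 and 0.17 on that scale, were 0.02 and 0.05 above its median.

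Markers of several cell types were lower as well. In the striatum the summed astrocyte markers ran from 3043 to 4088 CPM in vehicle R6/2 mice and from 5452 to 6625 CPM in WT mice, with 8 of 9 lower, and the summed striatal projection neuron markers from 2558 to 2937 CPM in R6/2 and from 6408 to 8583 CPM in WT, with 8 of 9 lower (median log2 -1.53). In that tissue 7 of 8 pan-neuronal, 6 of 7 interneuron, 5 of 8 oligodendrocyte, 1 of 4 oligodendrocyte precursor, 5 of 8 microglia, 7 of 7 endothelial and pericyte, 2 of 7 cortical neuron and 3 of 3 blood markers were lower; 1 pan-neuronal and 1 cortical neuron marker were higher, and none of 4 choroid plexus markers was called. In the cortex 7 of 9 astrocyte, 6 of 8 pan-neuronal, 6 of 7 interneuron, 5 of 7 cortical neuron, 3 of 9 striatal neuron, 4 of 8 oligodendrocyte, 1 of 7 endothelial and pericyte and 3 of 3 blood markers were lower, 1 cortical neuron marker was higher, and none of 8 microglia, 4 precursor or 4 choroid plexus markers was called. These counts depend on the scaling as well. On FPKM, 8 astrocyte, 8 striatal neuron, 6 interneuron, 4 oligodendrocyte and 2 cortical neuron markers were lower in striatum. So were 3 pan-neuronal, 3 endothelial and pericyte, 2 blood, 1 microglia and 0 precursor markers. In cortex 7 astrocyte, 6 pan-neuronal, 6 interneuron, 4 cortical neuron and 3 blood markers were lower on FPKM. So were 2 striatal neuron, 2 oligodendrocyte and 0 endothelial and pericyte markers. No marker was at 0 in every library of a group. Their part in the NAD gene results was not tested, and in bulk tissue fewer cells of a type and less RNA per cell cannot be told apart.

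Nampt, the first enzyme of nicotinamide salvage, and Nadsyn1, the last of the nicotinic acid route, changed in the cortex. Nampt had 63.9 to 77.3 CPM in vehicle R6/2 cortex (median 71.9) and 55.9 to 66.2 CPM in WT cortex (median 64.2). Of the 7 R6/2 libraries, 6 lay above every WT library, and Nampt rose by 0.18 ± 0.05 on the log2 scale (adjusted p = 0.0026), or 13.2%. In the striatum Nampt had 56.5 to 61.3 CPM in R6/2 and 56.5 to 65.2 CPM in WT, a log2 ratio of 0.01 ± 0.03 (adjusted p = 0.877). Nadsyn1 had 3.32 to 4.79 CPM in R6/2 cortex (median 3.79) and 4.26 to 6.35 CPM in WT cortex (median 5.15). It fell by 0.40 ± 0.10 (adjusted p = 0.00235), with 5 of 7 R6/2 libraries below all WT libraries. In the striatum its log2 ratio was -0.08 ± 0.09 (adjusted p = 0.49).

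Qprt, which joins quinolinate to the NAD pathway downstream of KMO, was near the limit of measurement. It had 0.115 to 0.418 CPM in vehicle R6/2 striatum (median 0.283) and 0.299 to 0.577 CPM in WT striatum (median 0.373), and 4 of 7 R6/2 libraries lay below all WT libraries. The log2 ratio of -0.59 ± 0.27 did not pass (unadjusted p = 0.0404, adjusted p = 0.0749; called at 0.045 without vehicle R6/2 striatum replicate 4). In the cortex 0.141 to 0.581 CPM in R6/2 and 0.0866 to 0.727 CPM in WT overlapped throughout, with a log2 ratio of 0.06 and a 95% interval from -0.69 to 0.81. A change of the striatal size was therefore not detectable in the cortex at this depth.

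The 3 NMNAT genes diverged. Nmnat1 had 8.42 to 10.4 CPM in vehicle R6/2 striatum (median 9.30), above all of the 7.03 to 8.33 CPM in WT striatum (median 7.68), and rose by 0.28 ± 0.07 (adjusted p = 0.00114). In the cortex it had 7.44 to 9.38 CPM in R6/2 and 6.02 to 8.17 CPM in WT, and its rise of 0.18 ± 0.07 (adjusted p = 0.0444) was lost without any of 8 of the 15 libraries (adjusted p up to 0.0998). Nmnat3 had 4.78 to 7.00 CPM in R6/2 striatum (median 5.46) and 6.74 to 9.34 CPM in WT striatum (median 7.60), with 6 of 7 R6/2 libraries below all WT libraries. It fell by 0.46 ± 0.12 (adjusted p = 0.00205), or by 27.4%. In the cortex, with 1.17 to 2.10 CPM in R6/2 (median 1.66) and 1.88 to 2.92 in WT (median 2.14), it fell by 0.50 ± 0.13 (adjusted p = 0.00435), again with 6 of 7 libraries below all of WT.

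Nmnat2, the most abundant of the 3, changed least. It had 99.7 to 127 CPM in R6/2 striatum (median 108) and 101 to 135 in WT striatum (median 124), and fell by 0.17 ± 0.07 (adjusted p = 0.0296). In the cortex 158 to 185 CPM in R6/2 (median 167) and 159 to 193 in WT (median 184) gave a fall of 0.12 ± 0.04 (adjusted p = 0.0175). The groups overlapped in both tissues. The striatal call was lost without any of 8 of 15 libraries, and both calls were lost on FPKM (log2 -0.05 and -0.03), although relative to the median of all genes there Nmnat2 was at -0.17 and -0.11.

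Within a library, the NMNAT make-up by FPKM does not depend on library scaling but does depend on the lengths used for FPKM. Nmnat1 made up 14.5% ± 1.62 of the summed NMNAT FPKM in vehicle R6/2 striatum (SD, n = 7) and 10.4% ± 0.864 in WT striatum (n = 8), with the lowest R6/2 share of 11.9% above the highest WT share of 11.5%. Nmnat3 made up 8.65% ± 0.876 in R6/2 striatum and 10.8% ± 2.02 in WT striatum. In the cortex its share was 1.89% ± 0.371 in R6/2 and 2.55% ± 0.494 in WT. There Nmnat1 held 9.62% ± 0.995 in R6/2 and 7.79% ± 0.879 in WT, and Nmnat2 88.5% ± 1.04 in R6/2 and 89.7% ± 1.18 in WT. By CPM the shares of Nmnat1 in R6/2 and WT striatum overlapped. Vehicle R6/2 replicate 2 had 8.424 CPM of Nmnat1, 126.9 of Nmnat2 and 5.616 of Nmnat3. WT replicate 1 had 7.565, 101.2 and 9.345 CPM, a larger share of Nmnat1. These shares are descriptions and were not tested.

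Nadk, which feeds NADPH-dependent defence, was at 63.2 to 74.1 CPM in vehicle R6/2 striatum and 64.9 to 76.8 in WT striatum, a log2 ratio of 0.02 ± 0.04 (95% interval from -0.07 to 0.11). In the cortex it was at 64.3 to 74.7 CPM in R6/2 and 64.1 to 71.0 in WT, with 5 of 7 R6/2 libraries above all of WT, a log2 ratio of 0.08 ± 0.04 (adjusted p = 0.116), which passed by DESeq2 (adjusted p = 0.0479), on FPKM (0.16, adjusted p = 0.00257; 0.08 above the median of all genes) and without vehicle R6/2 cortex replicate 4 (0.033).

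Of the 3 consumers, Sirt1 had the clearest change. Sirt1 had 23.99 to 30.4 CPM in vehicle R6/2 striatum (median 28.0), all above the 18.6 to 23.1 CPM in WT striatum (median 21.6). It rose by 0.37 ± 0.06 (adjusted p = 7.94e-06), or 29.5%. In the cortex 24.4 to 28.8 CPM in R6/2 (median 25.9) lay above the 18.9 to 21.7 CPM in WT (median 20.2), and Sirt1 rose by 0.35 ± 0.05 (adjusted p = 3.45e-06). Its call held under every alternative run in both tissues.

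Parp1, the main poly(ADP-ribose) polymerase of the DNA damage response, fell in both tissues. It had 62.2 to 64.5 CPM in vehicle R6/2 striatum (median 62.8) and 61.3 to 74.4 in WT striatum (median 71.6), overlapping through the lowest WT library, and fell by 0.14 ± 0.05 (adjusted p = 0.0175). In the cortex it had 59.0 to 74.8 CPM in R6/2 (median 66.3) and 68.8 to 79.4 in WT (median 76.4), with 6 of 7 R6/2 libraries below all of WT, and fell by 0.20 ± 0.05 (adjusted p = 0.00392). On FPKM neither fall was called (-0.03 and -0.10; relative to the median of all genes, -0.14 and -0.18).

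Sarm1 rose in the striatum, where it had 17.8 to 23.9 CPM in vehicle R6/2 (median 22.5) and 14.3 to 21.0 in WT (median 19.7), by 0.21 ± 0.08 (adjusted p = 0.0422). Leaving out any of 10 of the 15 libraries ended that call (adjusted p up to 0.0927), whereas on FPKM it was called in both tissues. In the cortex 27.6 to 36.7 CPM in R6/2 and 27.8 to 33.2 in WT gave a log2 ratio of 0.02 ± 0.05 (adjusted p = 0.813). Per unit of Nmnat2, Sarm1 was at 0.270 ± 0.0289 in R6/2 striatum (FPKM per FPKM; SD, n = 7) and 0.205 ± 0.0108 in WT striatum (n = 8), and the lowest R6/2 value of 0.234 lay above the highest WT value of 0.217. In the cortex this ratio was 0.264 ± 0.0216 in R6/2 and 0.230 ± 0.0256 in WT, and the groups overlapped. The ratio was not tested, and it rests on the lengths used for FPKM, as the NMNAT shares do.

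**Figure D3:**
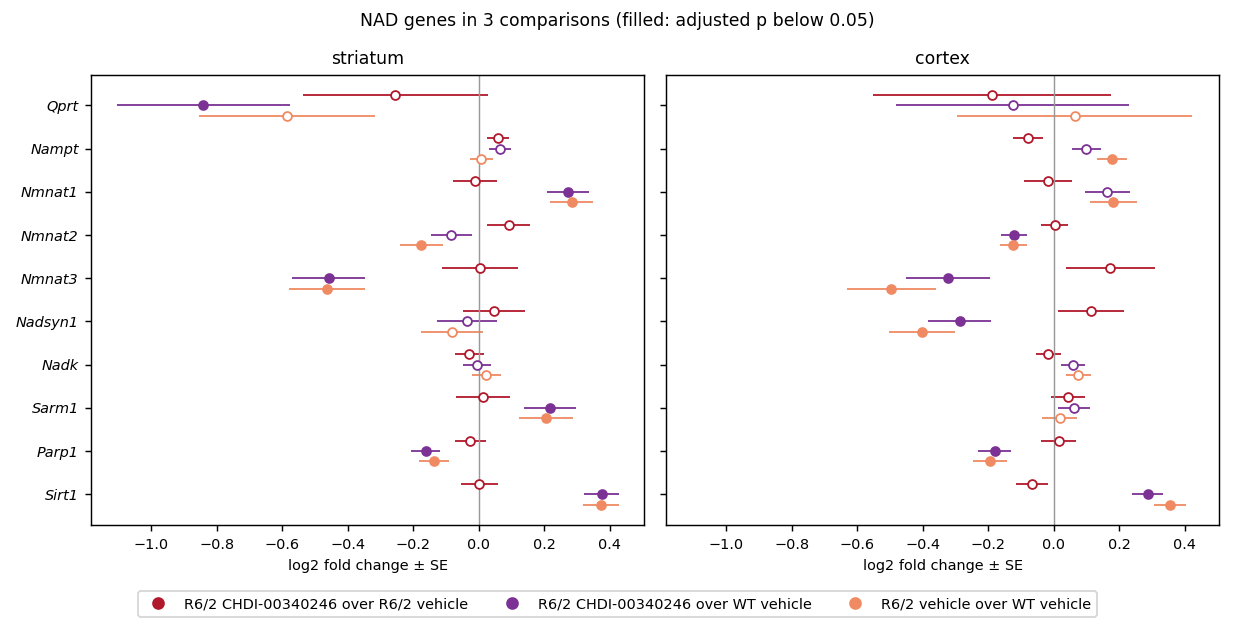
Log2 fold change ± SE of each NAD gene (edgeR) in 3 comparisons, striatum left and cortex right; filled points have an adjusted p below 0.05. The compound against vehicle has no filled point, and both R6/2 groups against WT have Sirt1 between 0.29 and 0.37.

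The effect of the R6/2 genotype differed between striatum and cortex for 1 of the 10 genes in the fit of both tissues with the animal as a block, where 15.4% of 18122 genes were called (6.9% with a higher and 8.53% with a lower effect in striatum). That gene was Nampt: the striatal effect minus the cortical effect was -0.20 ± 0.04 (adjusted p = 0.00311). It was called without the animal block (adjusted p = 0.0143) and missed the threshold on FPKM (-0.13 ± 0.05, adjusted p = 0.0699). No fit of both tissues held a term for the L number, which differs between the tissues and between the groups. Nadsyn1, called in the cortex alone, had a difference of 0.29 ± 0.12 (unadjusted p = 0.0228, adjusted p = 0.107) and was called when the animal of vehicle R6/2 striatum replicate 6 was left out. Sarm1, called in the striatum alone, had 0.16 ± 0.10 (adjusted p = 0.311), and Qprt -0.71 ± 0.47 (adjusted p = 0.348). The effects on Sirt1 and Nmnat3 differed by -0.01 ± 0.08 and 0.01 ± 0.13.

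CHDI-00340246 left none of the NAD genes called against vehicle in R6/2 mice, in either tissue, and none of all genes tested (0% by edgeR; also 0 by DESeq2 and by limma on FPKM). At an unadjusted p under 0.05, edgeR gave 464 of 17394 genes in the striatum (2.67%) and 1015 of 17484 in the cortex (5.81%), none of them an NAD gene. Leaving aside Qprt, the log2 ratios of treated to vehicle R6/2 mice lay between -0.03 and 0.09 in the striatum and between -0.08 and 0.17 in the cortex, and their 95% intervals reached no further than -0.24 and 0.25 in the striatum and -0.17 and 0.46 in the cortex, the last being that of Nmnat3.

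Qprt, the member nearest downstream of the inhibited step though not adjacent to it, had 0.114 to 0.449 CPM in treated R6/2 striatum (median 0.204) and 0.115 to 0.418 CPM in vehicle R6/2 striatum (median 0.283). The log2 ratio was -0.26, with an interval from -0.85 to 0.33. In the cortex it had 0.134 to 0.358 CPM in treated and 0.141 to 0.581 in vehicle mice, with a ratio of -0.19 and an interval from -0.95 to 0.57. These intervals leave room for changes of the size seen between R6/2 and WT striatum.

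Nampt had the smallest p of the 10 genes in both tissues, with opposite signs. In the striatum it had 56.9 to 65.7 CPM in treated mice (median 61.9), 6 of 8 above all of the 56.5 to 61.3 CPM in vehicle mice (median 60.3), a log2 ratio of 0.06 ± 0.03 (unadjusted p = 0.106). In the cortex it had 65.4 to 73.1 CPM in treated mice (median 67.3) and 63.9 to 77.3 in vehicle mice (median 71.9), a ratio of -0.08 ± 0.05 (unadjusted p = 0.0933). The difference between tissues was 0.14 ± 0.04 (unadjusted p = 0.00539, adjusted p = 0.673), where 7.32% of 18122 genes had an unadjusted p under 0.05 and 0% were called. All treated cortical libraries were L5 or L6, whereas the vehicle R6/2 ones ran from L5 to L8. Vehicle libraries of L5 and L6 had 63.9 to 69.9 CPM of Nampt, and those of L7 and L8 71.9 to 77.3 CPM. The cortical ratio and the difference between tissues therefore mix the compound with the L number.

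Sirt1, high in vehicle R6/2 mice, stayed at 24.8 to 29.6 CPM in treated striatum (median 27.4; log2 ratio 0.00, interval from -0.11 to 0.12) and at 22.9 to 27.9 CPM in treated cortex (median 24.8; -0.07, interval from -0.17 to 0.04). Nmnat3 had 3.46 to 6.97 CPM in treated striatum (median 5.51; 0.00, interval from -0.24 to 0.25) and 1.37 to 2.22 CPM in treated cortex (median 1.84; 0.17, interval from -0.11 to 0.46). Nadsyn1 in treated cortex had 3.52 to 4.89 CPM (median 4.22), with 3 of 8 libraries above all vehicle R6/2 libraries and a ratio of 0.11 (interval from -0.10 to 0.32). Nmnat2 of treated striatum ran from 106 to 148 CPM, a ratio of 0.09 that was 0.03 without replicate 5, the library with few striatal neuron markers and the highest Nmnat2. Without it, the striatal ratios of the other genes lay between -0.17 for Qprt and 0.09 for Nmnat3, and again none was called. Of the cell type lists, oligodendrocyte markers moved most in the cortex. They were lower by a median of 0.35, with 7 of 8 at an unadjusted p under 0.05 (edgeR; 5.81% of all genes) and none called. Here too the compound is mixed with the L number.

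Treated R6/2 mice set against WT mice share the WT libraries with the vehicle comparison, so the values are given side by side and are not independent. In the striatum, where 52.9% of genes were called (27.8% higher, 25.2% lower), 3 NAD genes rose (Sirt1 0.37 ± 0.05, Nmnat1 0.27 ± 0.06, Sarm1 0.22 ± 0.08) and 3 fell (Qprt -0.84 ± 0.26, Nmnat3 -0.46 ± 0.11, Parp1 -0.16 ± 0.04). Qprt was thus called here (adjusted p = 0.0102; 0.0213 without replicate 5), with 6 of 8 treated libraries below all WT libraries, where vehicle R6/2 mice had -0.59. The direct difference in Qprt between treated and vehicle R6/2 striata, given above, did not pass. Without replicate 5, Sarm1 lost its call (adjusted p = 0.0699), as it did without WT striatum replicate 1 (0.0563), and Nmnat2 gained one (-0.14, adjusted p = 0.0208; with it -0.08, adjusted p = 0.274). On FPKM the NAD genes of the striatum were 5 higher and 2 lower, where 55% of all genes were called (39.9% higher, 15% lower).

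In the cortex, where 46.7% of genes were called (22.8% higher, 23.9% lower), Sirt1 rose (0.29 ± 0.05, adjusted p = 2.82e-05) and Nadsyn1 (-0.29 ± 0.10), Nmnat3 (-0.32 ± 0.13), Parp1 (-0.18 ± 0.05) and Nmnat2 (-0.12 ± 0.04) fell. Nampt at 0.10 ± 0.04 (adjusted p = 0.0681) and Nmnat1 at 0.16 ± 0.07 (0.0578) did not pass by edgeR and did by DESeq2 (0.043 for Nampt, 0.041 for Nmnat1). Nampt also passed with the 2 groups fitted alone (0.0469), and Nmnat1 with DESeq2's size factors in edgeR (0.0471). Nmnat3 lost its call without any of 8 of 16 libraries, and Nmnat2 without treated cortex replicate 2 (adjusted p = 0.0512). On FPKM 5 NAD genes were higher and 0 lower, where 47.6% of all genes were called (31% higher, 16.6% lower). Treated and WT cortical libraries share no L number of the library codes, which the labels do not explain. It is L5 or L6 in all treated and L7 or L8 in all WT libraries, so no comparison within an L number was possible, and a fit with it as a covariate links the groups through the vehicle R6/2 libraries, which lie in both sets. In that fit Sirt1 (0.39 ± 0.09), Nampt (0.26 ± 0.07, adjusted p = 0.0151) and Parp1 (-0.26 ± 0.08) were called. Nmnat3 (-0.13 ± 0.25, adjusted p = 0.744), Nmnat2 (-0.06 ± 0.08, 0.604) and Nadsyn1 (-0.48 ± 0.19, 0.0694) were not.

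The same L number bears on the vehicle comparison in the cortex. Within L7 and L8 (4 vehicle R6/2 and 8 WT libraries), 5 of the 10 genes were called and Nmnat1 (0.18, adjusted p = 0.157) and Nmnat2 (-0.08, adjusted p = 0.277) were not. With the L number as a covariate, 4 were called, and Nmnat1 (0.10, adjusted p = 0.352), Nmnat2 (-0.10, 0.127) and Nmnat3 (-0.39, 0.0769) were not. Sirt1, Nampt, Nadsyn1 and Parp1 were called both ways. Over all alternative settings, both of these fits included, 6545 to 8433 genes were called in this comparison (7712 as reported). In the striatum the covariate ended the call of Nmnat2 (-0.15, adjusted p = 0.0573) and of no other NAD gene. With it 7930 of 17394 genes were called there, against 8735 as reported.

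No difference in response between females and males passed the test for any NAD gene. Over the 10 genes the smallest unadjusted p of the difference was 0.24 (Nampt, striatum) and 0.102 (Sarm1, cortex) for the genotype, and 0.189 (Nmnat3, striatum) and 0.154 (Sirt1, cortex) for the compound. No gene at all was called in these 4 comparisons by edgeR (0% each), and 773 (4.44%), 1097 (6.27%), 761 (4.38%) and 2355 (13.5%) genes had an unadjusted p under 0.05, in the same order, with none of the 10 NAD genes among them; no other tool was run for them. With 3 or 4 animals per sex and group the median standard error of such a difference was 0.17, so differences of the size of the effects above could have been missed.

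The rest of the NAD pathway was described by 8 lists of neighbouring genes; a list gene given for 1 tissue was not called in the other, which does not show that the tissues differed. In the de novo branch, 1 gene rose and 3 fell of 6 tested in vehicle R6/2 striatum (median log2 -0.26) and 2 rose and 3 fell of 6 in cortex (median -0.25). Ido1, which opens the tryptophan ring, had 6.01 to 9.91 CPM in R6/2 striatum and 18.6 to 28.0 in WT striatum, without overlap, and fell by 1.49 ± 0.23 (adjusted p = 1.01e-05). In the cortex, at 0.407 CPM or less in R6/2 and 0.242 to 0.837 in WT, it fell by 1.98 ± 0.41. The cortical Ido1 values were near the limit of measurement, like those of Qprt, so the size of that fall is uncertain. Afmid, which makes kynurenine from its formyl precursor, had 2.87 to 4.39 CPM in R6/2 striatum and 0.824 to 2.31 in WT striatum, and rose by 1.2 ± 0.18 there and by 1.03 ± 0.13 in cortex. Ido2 fell by 0.67 ± 0.14 in striatum and by 0.78 ± 0.14 in cortex, and Tdo2, a liver-type tryptophan dioxygenase, rose by 0.86 ± 0.19 in cortex.

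The steps between the drug target and Qprt were scarcely expressed in these tissues. Kmo held at most 0.918 CPM in any library, Kynu at most 0.330 and Haao at most 0.334, and none of the 3 passed the filter on low counts. Acmsd and Aadat did not pass either, so none of these genes was tested for a change in the main fits.

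Most listed genes of the PARP family rose, in a list drawn up with earlier results of these data known. Of 13 genes, 8 rose and 2 fell in striatum (median 0.35) and 8 rose and 1 fell in cortex (median 0.24), where 25.8% and 21.5% of all genes rose, and on FPKM the counts were 8 and 2, and 8 and 1. Parp14 rose by 0.46 ± 0.15 in striatum and 0.99 ± 0.14 in cortex, Parp9 by 0.63 ± 0.14 in striatum and 0.76 ± 0.11 in cortex, and Parp12 by 0.71 ± 0.09 and 0.75 ± 0.08; the 3 are known as interferon-stimulated mono(ADP-ribosyl) transferases or their partners. Parp3, a DNA repair enzyme, fell by 0.78 ± 0.12 in striatum. Parp1 itself fell, as given above, and is not part of this list. Of the 6 other sirtuins, none rose and 1 fell in striatum (median -0.02; 2 and 1 on FPKM), which was Sirt7, a nucleolar deacetylase, by 0.71 ± 0.07. In cortex 1 rose and 3 fell (median -0.20), the riser being Sirt5, a mitochondrial desuccinylase outside the naming rule, at 0.23: Sirt7 fell by 0.56 ± 0.06 and the mitochondrial Sirt3 and Sirt4 by 0.33 ± 0.06 and 0.26 ± 0.07. Sirt1 was the one sirtuin called higher in both tissues by counts.

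**Figure D4:**
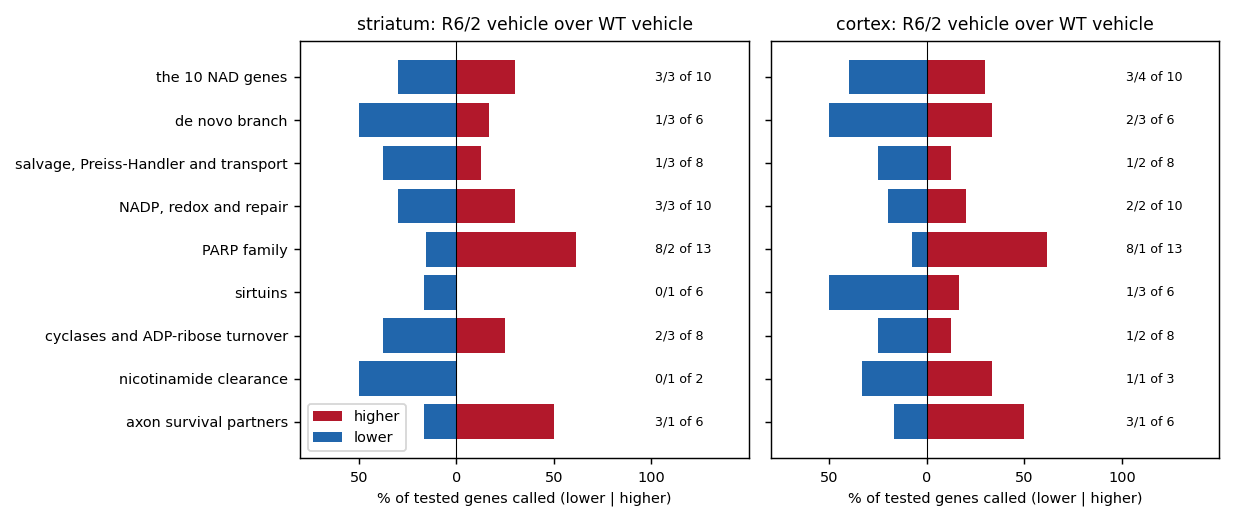
Percent of the tested genes of each list called higher (right) or lower (left) in vehicle R6/2 over WT, striatum left and cortex right, with counts as higher/lower of tested. The PARP family has 8 higher genes of 13 in each tissue.

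Salvage, Preiss-Handler and transport genes counted 1 higher and 3 lower of 8 in striatum (median -0.28) and 1 higher and 2 lower of 8 in cortex (median -0.01; on FPKM 2 higher and 1 lower). Naprt, which starts the route from nicotinic acid that ends at Nadsyn1, fell by 0.50 ± 0.12 in striatum and 0.29 ± 0.11 in cortex, the second call being lost without any of 5 of 15 libraries. Slc12a8 fell by 0.59 ± 0.18 in striatum, the nucleoside transporter Slc29a1 by 0.42 ± 0.09 and 0.40 ± 0.13, and the mitochondrial NAD carrier Slc25a51 rose by 0.28 ± 0.04 in striatum and 0.21 ± 0.04 in cortex. NADP, redox and repair genes counted 3 higher and 3 lower of 10 in striatum (median -0.02) and 2 and 2 in cortex (median 0.02). There Nudt12, a hydrolase of NADH, rose by 0.63 ± 0.07 and 0.46 ± 0.08, Naxd, which repairs hydrated NADH, fell by 0.47 ± 0.05 and 0.42 ± 0.05, G6pdx fell by 0.45 ± 0.05 in striatum, and Me1 rose by 0.47 ± 0.04 in cortex; the last 2 make NADPH.

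Cyclases and ADP-ribose turnover counted 2 higher and 3 lower of 8 in striatum (median 0.03; 5 and 1 on FPKM) and 1 higher and 2 lower of 8 in cortex (median 0.00; 2 and 1 on FPKM). The NAD glycohydrolase Cd38 fell by 0.65 ± 0.15, Macrod1 rose by 0.70 ± 0.10 and Macrod2 fell by 0.21 ± 0.06 in striatum, and Trpm2 fell by 0.24 ± 0.06 in cortex. Nudt5 fell by 0.12 ± 0.04 in striatum and 0.29 ± 0.05 in cortex, and Parg rose by 0.16 ± 0.04 and 0.19 ± 0.05. Nicotinamide clearance counted none higher and 1 lower of 2 in striatum (median -0.58) and 1 and 1 of 3 in cortex (median 0.66). Aox1 fell by 0.65 ± 0.10 in striatum and by 0.31 ± 0.12 in cortex, the second call being lost without any of 7 of 15 libraries. Nnmt, which methylates nicotinamide, had 0.594 to 2.00 CPM in R6/2 cortex and 0.144 to 0.514 in WT cortex, and rose by 2.11 ± 0.33 (adjusted p = 1.82e-05). Its WT values were near the limit of measurement. The list had 3 genes tested here and 2 among WT libraries alone, so Nnmt may have passed the filter through its R6/2 libraries. The size of its rise is therefore uncertain. In the striatum Nnmt held at most 0.254 CPM and did not pass the filter. Axon survival partners of Nmnat2 and Sarm1 counted 3 higher and 1 lower of 6 in both tissues (medians 0.11 and 0.03): Stmn2 rose by 0.45 ± 0.11 and 0.33 ± 0.07, the ubiquitin ligase Mycbp2 by 0.22 ± 0.06 and 0.25 ± 0.07, and the kinase Map3k12 fell by 0.40 ± 0.05 and 0.37 ± 0.05. Against vehicle, CHDI-00340246 left no gene of the 8 lists called in either tissue, with list medians between -0.13 and 0.11.

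Genes of like pattern were sought for the 3 NAD genes with the largest genotype effects, Qprt, Nmnat3 and Nadsyn1, as the smallest root mean square distance over 6 group means of log2 CPM, each gene centred on its own mean, among 16964 genes. Nearest to Nmnat3 were 4930429F24Rik (0.0457), Sp7 (0.0586) and Rgs8 (0.0688), against a spread of 0.863 in the Nmnat3 profile itself. Nearest to Nadsyn1, whose profile spread was 0.118, were Tyw3 (0.0186), Trim8 (0.0207) and ENSMUSG00000096232 (0.0264), all with WT cortex as the high group. Nearest to Qprt, with a spread of 0.239, were Loxl1 (0.0554), Tnc (0.0693) and Akr1c14 (0.0756), all with WT striatum as the high group. These are the closest of many profiles and no more than that.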

How the data were processed

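Estimated counts per gene, and FPKM in a second table, were deposited by the authors for all 46 libraries. Per the submitters' processing notes CASAVA 1.8.2 and mm10 were used; the aligner, the quantifier and the FPKM denominator are not stated in these sources. Of the deposited nonzero estimated counts 33.8% were not whole, and all were rounded to whole numbers before testing. Depth ran from 30.4 to 37.8 times 1e+06 counts per library. The labels mention no molecular identifiers, so precision rests on the spread between animals. Positions and exons are from GENCODE vM21 on mm10.

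Tests were edgeR 4.0.16 quasi-likelihood fits (R 4.3.3, TMM, filterByExpr), 1 per tissue, with group and sex as terms, Benjamini-Hochberg adjustment over all genes tested and a call at adjusted p below 0.05. Tissue differences used both tissues with the animal as a block: striatal and cortical deviations of the same animal correlated in all 23 animals (r from 0.218 to 0.626, median 0.408), and the animal codes in the labels give the pairing. Alternatives were DESeq2 1.42.0, limma 3.58.1 on log2 of deposited FPKM with a pseudocount of 0.1 or 1, and other covariates, filters and left-out libraries. The fits were tested on simulated data. The 10 genes and the lists were chosen with earlier results of these data known. Named list genes are, per list and tissue, at most 3 called genes with the largest change, plus Kmo, Kynu and Haao, which were always given. Pnp was not matched in the tables. No protein sequence was used here.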

Additional observations from a re-analysis of the deposited data

Results flagged for a closer look

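In 8 of 60 sets of values (10 genes in 6 groups), 1 library lay farther from the others than Dixon's 95% limit allows; chance alone gives about 3. All 8 were in the striatum. Treated replicate 5 accounted for 4 of them: Nmnat2 was 148 CPM (next highest 114), Nadk 58.7 CPM (next lowest 68.4), Sarm1 27.3 CPM (next highest 23.1) and Parp1 51.6 CPM (next lowest 60.6). The same library had 730 CPM of striatal projection neuron markers, the lowest of its group. Vehicle R6/2 replicate 2 had 127 CPM of Nmnat2 (next highest 108) and 63.2 CPM of Nadk (next lowest 70.0). Vehicle R6/2 replicate 1 had 64.5 CPM of Parp1, in a group that spanned 62.2 to 64.5 CPM. WT replicate 1 had 14.3 CPM of Sarm1 (next lowest 18.02).

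The genotype effect on Nampt differed between the tissues by test, the striatal minus the cortical effect being -0.20 on the log2 scale (edgeR, adjusted p = 0.00311). It was not called on FPKM (limma, -0.13, adjusted p = 0.0699), and neither fit held a term for the L number.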

How the results depend on the processing

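Of 162 counts of calls recomputed under other settings, 157 stayed within 1.5 times their value, and so did 376 of 380 counts with libraries left out. These include counts of 0 that stayed 0, and a count can stay while its genes change. In striatum 6 NAD genes were called by counts and 6 on FPKM, where Nampt and Nadk replaced Nmnat2 and Parp1. Gene by gene, 74 of 1261 results lost their call under other settings and 36 gained one. With libraries left out, 55 of 2545 lost their call and 13 gained one. No called value changed sign. The counts that moved further follow, and their cause was not tested. With the L number as a covariate the NAD genes called in cortex were 4 for vehicle R6/2 against WT (7 as reported) and 3 for treated R6/2 against WT (5 as reported), with 4062 genes called in all for treated R6/2 against WT (8164 as reported). Without a filter on low counts the comparison of treated R6/2 with WT in cortex called 3 NAD genes, and 7997 of all 28785 genes. On FPKM, a setting chosen after seeing the data, no NAD gene differed in its genotype effect between tissues (1 as reported). Leaving out libraries gave 1 to 2 NAD genes there, beside 2351 to 3066 of all genes. It gave 0 to 1 genes for the difference of the genotype effect between sexes in cortex, and 0 to 27 genes for that of the compound effect (27 without vehicle R6/2 cortex replicate 1). Counts of NAD genes with libraries left out were 4 to 6 in striatum and 6 to 8 in cortex for vehicle R6/2 against WT. Counts of all genes were then 8262 to 8750 and 7220 to 7647.

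The replicate numbers in the titles name different animals in each group. Taken as a replicate block within sex, they left 5 NAD genes called in striatum and 6 in cortex for vehicle R6/2 against WT, 6 and 4 for treated R6/2 against WT, and 0 for the compound in both tissues. Of 17394 genes in striatum, that block called 8277 for vehicle and 8938 for treated R6/2 against WT (8735 and 9208 as reported). In cortex, all alternative settings together called 6545 to 8433 and 4062 to 8890 genes in those comparisons. Samples with the same number did not deviate together (median r of 0.00 in striatum and -0.04 in cortex), and 3 of 23 striatal and 6 of 23 cortical libraries correlated best with their own number. Depth limits Qprt, and Kmo, Kynu and Haao fell below the filter on low counts.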
